A study of Glycine max with 23 samples.

Results

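In soybean small RNA data, 112 mature sequences of 20 to 22 nt carried no miRNA name although each was placed on hairpins at 2 or more loci of the genome. They were taken from 2839 distinct sequences by length, by the absence of a miRNA name, by the number of places and by a mean of at least 5 tags per 5000000 sequenced tags (TP5M) over 23 libraries. A name here means a miRBase-style family number; the members have only locus numbers such as M4031-5p, in which 5p or 3p gives the arm of the hairpin. In all, 1791 unnamed sequences had this length. Members were chosen by their mean level in these same libraries, so their levels are a description and were not tested against those of other sequences.

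Plant miRNAs are cut from hairpin transcripts as a duplex, of which the guide strand is kept in an Argonaute protein and pairs with target mRNAs, while the opposite arm is mostly lost. Soybean is a paleopolyploid whose genome was duplicated long ago more than once, so that many genes survive as copies on different chromosomes. A mature sequence that is identical at several loci cannot be assigned to any of them from its reads, whereas an arm that differs by a base can.

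The libraries were made from untreated plants of Glycine max cultivar Williams 82 and no tissue was replicated. The 6 leaf libraries were a new leaf from germination, a new and an old leaf of the trefoil stage, a new and an old leaf from the time when flower buds differentiate, and a senescent leaf. The 5 flower libraries were flower bud, bud just before flowering, florescence sampled on 2 dates, and a flower 5 days later. There were 3 pods, of weeks 1, 2 and 3, and 3 seeds, of weeks 6, 8 and 10. Germination and trefoil plants each gave a stem and a cotyledon, germination also a root, and bud differentiation a leaf bud. The spread within an organ is therefore a spread between stages, and the p-values here measure differences against that spread, which is not a biological replicate error. In whole organs, fewer cells of a type and less RNA per cell cannot be told apart.

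Library totals, in units of 1e6 tags, ran from 3.63 to 6.74, and a value of 3 reads, the limit that 0 reads allow, was 2.22 to 4.14 TP5M. The labelled organs could not be checked against markers in a table of small RNAs. Leaf at trefoil (old) and at bud differentiation (old and new) and all 3 pods stood apart, since 14 fitted sequences were found in these 6 libraries alone. Among them were 2 members, M0899-5p and M1371-5p. In all, 8 members, M1371-5p and M0899-5p included, were listed at 0 in some libraries and at 10 or more reads in every other. Where levels of these 8 are given, no mean is used. The table also held 27 pairs of sequences that are each other's reverse complement, and in all 27 the values were identical in every library, so the strand of these was not told apart. The pairs include 8 members.

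The sequences below are the most abundant members and those that differed most between organs, printed 5′ to 3′ with the seed (bases 2 to 8) in capitals. A family in brackets was linked by an 18 nt run shared with a named miRNA or by a hairpin overlapping a named hairpin on the same strand. The roles given here are those of a family's guide strand, which an opposite arm need not have. All sequences are from the deposited table.
M4031-5p (miR167): tGAAGCTGccagcatgatctta
M4031-3p (miR167): gATCATGTggcagtttcacc
M4341-5p (miR172): gGAGCATCatcaagattcaca
M4097-5p (miR172): gTAGCATCatcaagattcaca
M1578-3p (miR156): gCTCACTTctctttctgtcaac
M0702-3p (miR156): gCTCACTTctctatctgtcagc
M5046-3p (miR156): gCTCATTCtctatctgtcacc
M1130-3p (miR164): cACGTGCTctccttttccagc
M3784-5p (miR166): gGAATGGTgtctggttcgaga
M1565-5p (miR166): gGAATGTTggctggctcgagg
M0560-3p (miR166): tTCGGACCaggcttcattcccc
M0479-3p (miR168): cCCGCCTTgcatcaactgaat
M2135-3p (miR319): tTTGGACTgaagggagctcct
M3014-5p (miR397): aTTGAGTGcagcgttgatgaa
M4242-3p (miR530): aGGTGCAGgtgcatctgcagg
M0827-5p (no family): tTCGGACAtgtcatccctttgt
M0345-5p (no family): cTTTGTACttatcaaagtccga
M5855-5p (no family): tGTAGGTTccagtgagggaaa
M0961-5p (no family): aAGGAACTcgaaattcatagt

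Most members were traceable to known families. An 18 nt run was shared with a named miRNA by 30, a further 29 lay on a hairpin that overlapped a named hairpin, and 53 had neither link. The 59 linked members were sorted by a fixed list of family numbers. Of them, 50 counted as ancient (shared by most flowering plants), 4 as legume and 5 as others. The legume group held miR482 and the others miR530, and how widely these occur in plants was not examined. miR166, whose 3p guide targets HD-ZIP III transcription factors, had the most with 8 members, followed by miR393 and miR396 with 4 each. The unlinked members were low, with a median mean of 9.08 TP5M against 75.7 for those that share a run and 56.0 for those linked by a hairpin; the highest unlinked member, M0084-5p, reached 103. By length, 2 members had 20 nt, 62 had 21 nt and 48 had 22 nt, and 61 began with T.

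Seeds were shared by few. The members had 106 different seeds, of which 5 occurred in more than 1 member. CGGACCA, the seed of miR166a-3p, was found in M5851-3p, M0366-3p and M2492-3p. GCCAAAG, the seed of miR399, a family that acts on phosphate uptake through the ubiquitin-conjugating enzyme PHO2 in Arabidopsis, was found in M1876-3p and M3353-3p. M3353-3p shared no 18 nt run with a named miRNA but differed from miR399a at 1 base. Of the unlinked members whose nearest sequence was a named miRNA, it lay nearest. The unlinked M2489-5p and M2490-5p lie 1 base from each other, and neither is named.

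The copies lay on 2 or more chromosomes for 103 of the 112 members, on 1 chromosome for 8, and on 1 chromosome and unplaced scaffolds for 1, M0961-5p. The members had 318 loci in all; 71 members had 2 loci, and 73 lay on exactly 2 chromosomes. Chromosomes 4 and 6 shared the most members, 7, and chromosomes 1 and 2, 10 and 20, and 13 and 17 shared 6 each. Among members with 2 loci, the pair 13 and 17 held 5 and the pairs 1 and 2, 4 and 6, 9 and 16, and 10 and 20 held 3 each. These are counts of members, not of hairpins, and the 2 arms of a hairpin count separately. Both arms are counted for M4957 and M4833 on 13 and 17, and for M0246 on 1 and 2. The same holds for M1574 on 4 and 6, M3353 on 9 and 16, and M4031 on 10 and 20. Coordinates are those of the table, with the genome build not given in the sources used here. Genes around the hairpins were therefore not analysed.

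**Figure D1:**
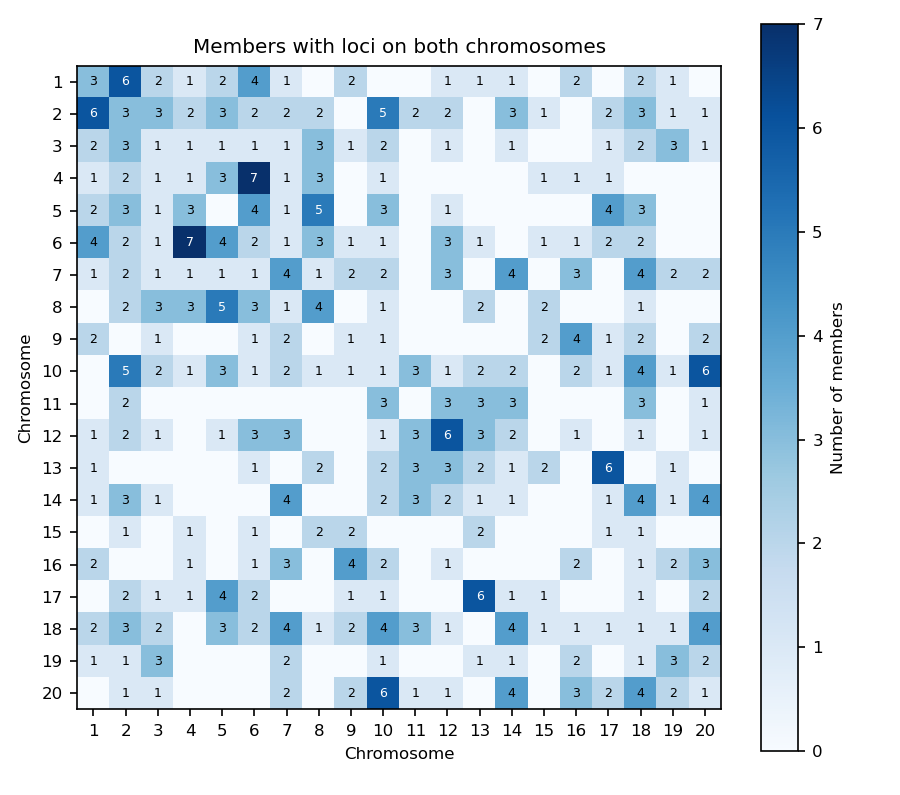
Number of members with loci on both of 2 chromosomes (axes: chromosomes 1 to 20; colour and digits: number of members; diagonal: members with 2 or more loci on that chromosome). Chromosomes 4 and 6 share 7 members, and 1 and 2, 10 and 20, and 13 and 17 share 6 each. The 2 arms of a hairpin count as separate members.

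M0560-3p, a 22 nt form of the miR166 guide, and M0961-5p had the most listed loci, 10 each. Those of M0560-3p were spread over 8 chromosomes, with overlapping hairpins on chromosomes 4 and 6. The overlapping hairpins hold the same copy of the sequence, so it has 8 places in the genome. Of the 10 loci of M0961-5p, 8 lay on the plus strand of chromosome 3 between 9169982 and the hairpin that starts at 9582158, a span of 412 kb with a median gap of 49.6 kb, and the others on 2 unplaced scaffolds. M0260-3p of miR395, a family that acts on sulfate assimilation, had 4 loci within 36.1 kb on chromosome 2 and 2 loci 12.9 kb apart on chromosome 1. The clusters were on the plus strand of chromosome 2 and the minus strand of chromosome 1. M1337-3p had 7 loci and M2490-5p had 6. In 3 members, M7052-5p, M2876-5p and M2584-3p, the 2 listed loci were opposite strands of the same place, 2 or 3 bases apart, so these have only 1 place in the genome. M4242-3p, M1371-5p and M4856-3p also had 1 place listed as 2 loci, besides other places. The counts of loci given here are of listed loci and exceed the places.

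The members took from 1.93% (exact binomial 95% interval 1.90 to 1.96) of the summed signal of the table in germination stem to 18.3% (18.2 to 18.4) in week 6 seed. These intervals cover counting error only. A single member made most of this range. M4031-5p averaged 12969 TP5M and made up 92.1% of the members' signal in week 6 seed, 91.9% in week 8 seed and 62.7% in week 10 seed, but 0.122% in trefoil stem. Without it the members' sum ran from 2422 TP5M in root to 49524 TP5M in old leaf at bud differentiation. The whole table summed to 102134 TP5M in root and 757845 TP5M in that leaf, so part of this range was common to the table.

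**Figure D2:**
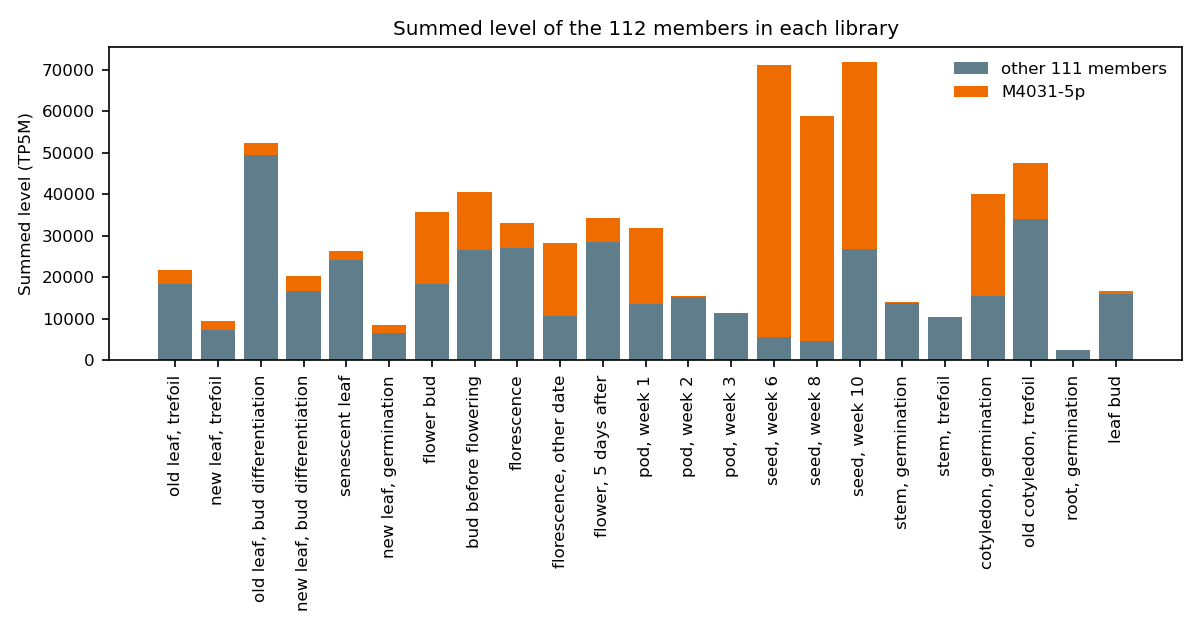
Summed level of the 112 members in each of 23 libraries (vertical axis: TP5M; orange: M4031-5p; grey: all other members). The 3 seed libraries reach 58829 to 71830 TP5M, most of it M4031-5p.

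M4031-5p is a 22 nt relative of miR167, which restrains the auxin response factors ARF6 and ARF8 in Arabidopsis. Its hairpins lie on chromosome 10 (46574261 to 46574350, minus strand) and chromosome 20 (37901904 to 37901993, plus strand). It stood at 65351 TP5M in week 6, 54066 in week 8 and 45013 in week 10 seed, and at 18263 TP5M in week 1, 184 in week 2 and 88.1 in week 3 pods. Thus every seed was above every pod, and the week 1 pod was far above the older pods. In flower it was 17127 TP5M in flower bud, 14001 in bud before flowering, 6242 and 17573 in florescence and 5657 after flowering, and the 6 leaf libraries ran from 1925 to 3563 with a median of 2501. The lowest levels were 12.7 and 78.6 TP5M in trefoil and germination stem, while germination and old cotyledon held 24339 and 13349. Seed exceeded pod by 6.31 ± 1.24 (log2 difference ± SE, limma with Benjamini-Hochberg adjustment, adjusted p = 0.0018), and exceeded leaf by 4.39 ± 1.07 (limma, adjusted p = 0.0078). The seed to pod difference was not called by edgeR on recovered reads (adjusted p = 0.0951, the highest of 27 alternatives, from 6.39e-08).

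The opposite arm, M4031-3p, is also identical at both loci. It had a mean of 29.7 TP5M, so that the 5p arm was 436-fold higher on average and higher in 23 of 23 libraries. In seed it stood at 208, 147 and 91.5 TP5M in weeks 6, 8 and 10, against 39.7, 0 and 2.05 TP5M in pods of weeks 1, 2 and 3. Both arms were thus above every pod in every seed. The 3p arm was higher in seed than in pod by 3.65 ± 0.70 (limma, adjusted p = 0.0015; not called by edgeR) and than in leaf by 3.54 ± 0.60 (limma, adjusted p = 0.0006).

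Across leaf, flower, pod and seed, 41 of the 112 members (36.6%) differed by limma's F-test, against 39.5% of all 595 sequences fitted. The share was 44.8% of 230 unnamed sequences at a single locus and 36.4% of 225 named sequences of the same length. The members' share is near that background and is no result about them as a group.

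The flower against leaf comparison gave 25 called members, of which 23 were higher in flower and 2 lower; 24.9% of all fitted sequences were called, 21.2% higher and 3.70% lower. Of the 23, 2 members, M4499-5p and M0470-3p, reached the mean of 5 TP5M only through flower. The members' median log2 difference was 0.45, and that of all sequences 0.43, so most of the general shift toward flower was common to the table. With trimmed mean of M-values (TMM) scaling, which brought the median of all sequences to 0, 8 were higher and 2 lower, edgeR called 5 higher and 4 lower, and DESeq2 called 6 higher and 13 lower. The number of higher members thus differed with the scaling, and also with the method, since edgeR kept the library totals as its scale. Shares of all sequences called under these settings are not given here. Without the flower 5 days after flowering 15 were called, and without new leaf at bud differentiation 38. The libraries of flower and leaf did not overlap for 8 members, against 9.92% of all sequences. By link, 12 of the 53 unlinked members were higher in flower and 0 lower, 8 of the 29 linked by a hairpin were higher and 1 lower, and 3 of the 30 that share a run were higher and 1 lower. Among the unlinked, M0308-5p averaged 81.6 ± 22.7 TP5M (SD, n = 5) in flower and 24.2 ± 21.2 (SD, n = 6) in leaf, and M2438-5p 59.9 ± 14.9 and 19.3 ± 18.5. M2438-5p is in a reverse-complement pair, so its strand was not told apart.

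A pair of members that moved in opposite directions was that of the 5p arms of miR172, a family whose 3p guide represses AP2-like factors and promotes flowering. M4341-5p and M4097-5p differ at 1 position, T2G (the base of M4097-5p, the position from the 5′ end, the base of M4341-5p). M4341-5p stood at 353, 773, 333, 205 and 265 TP5M in flower bud, bud before flowering, the 2 florescence dates and after flowering, while the 6 leaf libraries ran from 0 to 96.1 with a median of 16.9. Every flower library was above every leaf library. Its mean was 386 ± 224 TP5M (SD, n = 5) in flower and 28.2 ± 36.2 (SD, n = 6) in leaf, a log2 difference of 4.12 ± 0.62 (limma, adjusted p = 0.0004).

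M4097-5p went the other way. It was at 222, 302, 744, 419 and 704 TP5M in the same flower libraries, and leaf ran from 559 to 8364 with a median of 2278. Only the new leaf at germination fell among the flower libraries. The mean was 478 ± 236 TP5M (SD, n = 5) in flower and 2996 ± 2831 (SD, n = 6) in leaf, a log2 difference of -2.27 ± 0.63 (limma, adjusted p = 0.0149). This call was lost with a term for the 6 libraries that stand apart and without a filter on low values (adjusted p up to 0.123, from 4.24e-06, over 27 alternatives), whereas that of M4341-5p held in all 27. M4341-5p has hairpins on chromosomes 11 (35957819 to 35957948), 14 (5548764 to 5548892) and 18 (2968998 to 2969127), and M4097-5p on chromosomes 11 (16934082 to 16934222), 12 (6110715 to 6110850) and 13 (40401684 to 40401813). In stem, cotyledon and root M4341-5p was between 0 and 14.2 TP5M.

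miR156, which keeps plants juvenile by repressing SPL factors, had 3 members, all on the 3p arm opposite the guide. M1578-3p, on chromosomes 4 (4990852 to 4990955) and 6 (4699142 to 4699246), was at 63.2, 54.1, 82.8, 24.7 and 45.1 TP5M in the flower libraries, and leaf ran from 96.8 in senescent leaf to 1013 with a median of 577. All leaf libraries were above all flower libraries. The log2 difference was -3.07 ± 0.57 (limma, adjusted p = 0.0011), and it was called under all 27 alternatives. M0702-3p, which differs from it by A13T and G21A (base of M0702-3p, position from the 5′ end, base of M1578-3p), had a log2 difference of -0.47 that was not called. Its highest levels were in stem, 2878 TP5M at trefoil and 1653 at germination, and stem held 45.0% of its summed organ means. Leaf bud, where both were low, had 53.8 TP5M of M0702-3p and 37.2 of M1578-3p.

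The largest log2 difference toward flower was that of M1130-3p, the arm opposite the guide of miR164, a regulator of NAC factors such as CUC genes that set organ boundaries. Flower libraries were at 837, 744, 733, 367 and 852 TP5M, and leaf from 2.06 to 1232 with a median of 10.5. New leaf at bud differentiation alone gave the 1232, and with it the leaf libraries overlapped those of flower. The log2 difference was 4.37 ± 0.99 (limma, adjusted p = 0.0041), but neither edgeR nor DESeq2 called it (adjusted p up to 0.358, from 1.11e-05, over 27 alternatives). The leaf bud held 630 TP5M, and both cotyledons were listed at 0.

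The other members named for this comparison each had a leaf library far above the leaf median. M1574-3p of miR394, which acts on an F-box gene in the shoot meristem, was at 146, 1262, 592, 35.8 and 958 TP5M in flower and had a leaf median of 3.95 with old leaf at bud differentiation at 544. M0917-3p of miR393, which acts on auxin receptors, was at 792, 1609, 1450, 184 and 1486 TP5M in flower, against a leaf median of 93.3 and 1392 in the same old leaf. M3000-5p, linked to miR862, was at 94.3, 89.2, 173, 45.7 and 126 TP5M in flower against a leaf median of 2.91, with new leaf at bud differentiation at 107. In each of the 3, flower and leaf libraries overlapped. Their log2 differences were 3.74 ± 1.09, 2.87 ± 0.85 and 2.77 ± 0.69 (limma, adjusted p = 0.0189, 0.0194 and 0.0076), and neither edgeR nor DESeq2 called any of them. The call of M1574-3p was also lost without bud before flowering or without the flower 5 days after, and that of M0917-3p without the latter or without a filter on low values.

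**Figure D3:**
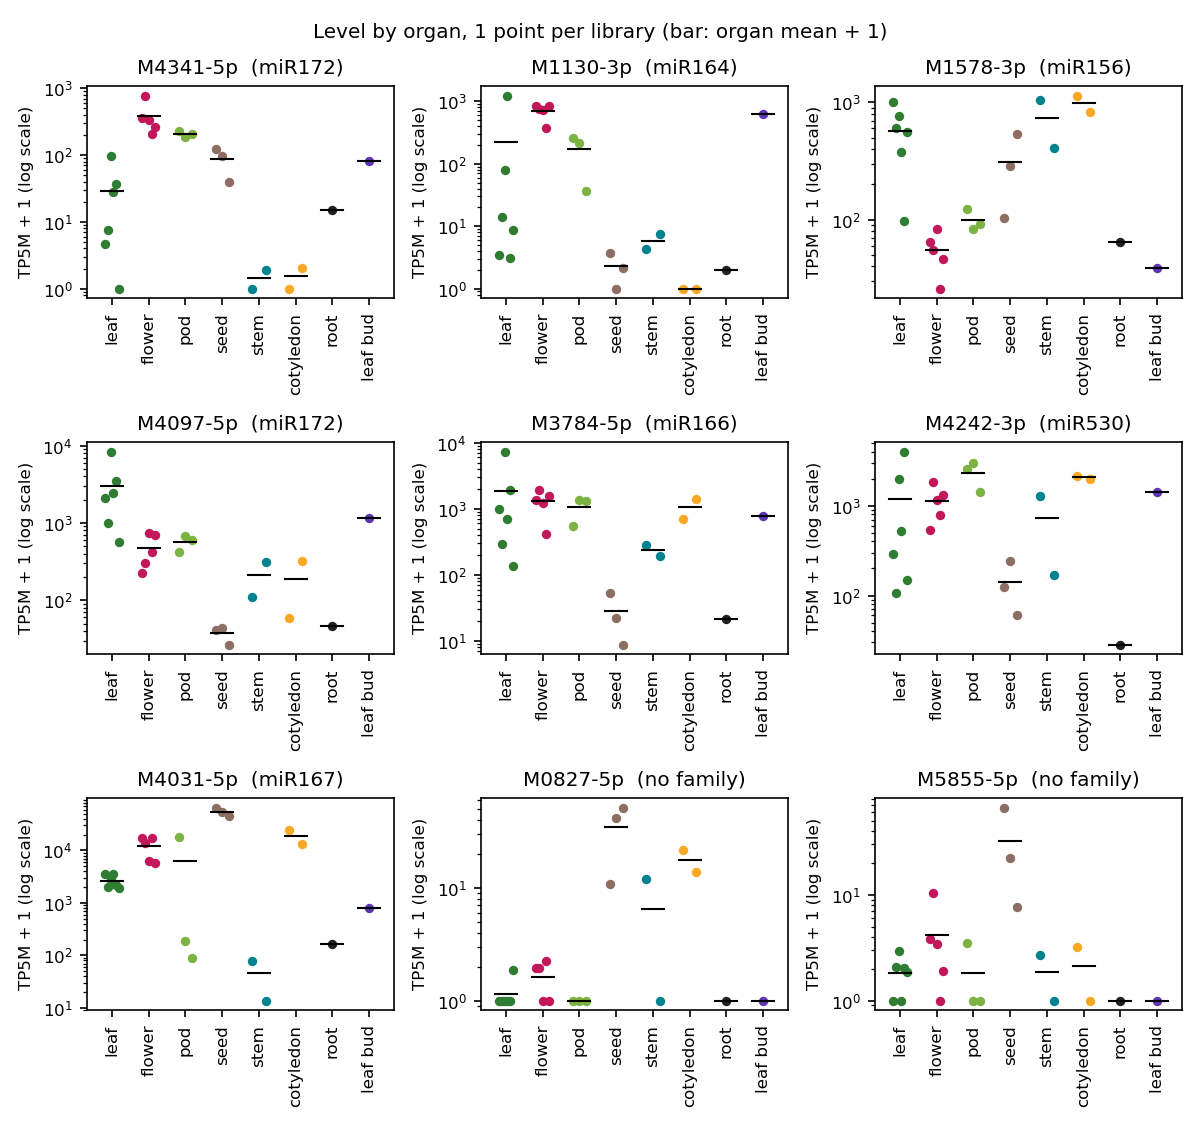
Level of 9 members by organ (vertical axes: TP5M + 1 on a log scale; points: libraries; bars: organ means + 1). All flower libraries lie above all leaf libraries for M4341-5p and below them for M1578-3p, and seed libraries lie above all pods for M4031-5p, M0827-5p and M5855-5p.

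Between flower and pod limma called 0 members, against 2.02% of all sequences. At an unadjusted p below 0.05 there were 14 members, against 13.6% of all sequences. edgeR called 0 and DESeq2 called 4, with no shares of all sequences given. Without florescence of the other date 6 members were called. Flower and pod libraries did not overlap for 14 members, against 18.5% of all sequences.

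Between seed and pod 21 members differed, 5 higher and 16 lower in seed, against 16.3% of all sequences (4.03% higher and 12.3% lower). The members' median log2 difference was -0.75 and that of all sequences -0.64. With TMM scaling 6 members were higher and 9 lower, with no shares of all sequences given. The libraries did not overlap for 59 members, and likewise for 50.1% of all sequences. All 3 pods are among the 6 libraries that stand apart. With a term for these libraries, 3 members were called, both arms of M4031 and M0827-5p, all higher in seed. Of these, M0827-5p reached the mean of 5 TP5M only through the seeds, so its call is no support. Leaving out the week 2 pod left 10 calls, the week 10 seed 12 and the week 8 seed 13.

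Besides both arms of M4031, 3 unlinked members are among the 5 called higher in seed than in pod, M0827-5p, M0345-5p and M5855-5p. They reached the mean of 5 TP5M only through the seeds, with means of 2.42, 3.48 and 1.35 TP5M over the other 20 libraries. Their choice thus required high seed values, and these are given as a description with no test. M0827-5p was at 9.90, 40.3 and 50.2 TP5M in weeks 6, 8 and 10 and listed at 0 in all 3 pods, at least 9.41-fold higher in seed against the largest 3-read value of a library of these organs. It has 5 loci, on chromosome 2, and on chromosomes 7 and 12 with 2 each. M0345-5p was at 4.50, 24.9 and 39.1 TP5M and also at 0 in the pods, at least 6.42-fold higher in seed. Both were present in germination cotyledon and germination stem as well, M0827-5p at 20.8 and 11.0 TP5M and M0345-5p at 28.9 and 17.8, and at 12.6 and 17.9 in old cotyledon.

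M5855-5p had another order of weeks, 65.7 TP5M in week 6, 21.3 in week 8 and 6.70 in week 10, against 2.53, 0 and 0 in pods of weeks 1, 2 and 3. Its 2 loci lie 50.4 kb apart on the plus strand of chromosome 16 (4594015 to 4594169 and 4644367 to 4644523). Outside seed its highest value was 9.49 TP5M in bud before flowering.

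The members that fell most from pod to seed were linked to families counted as ancient, except M4242-3p, whose family was counted among the others. M3784-5p, the 5p arm of miR166 hairpins on chromosomes 10 (41243363 to 41243466) and 20 (43105393 to 43105499), stood at 550, 1359 and 1304 TP5M in pods of weeks 1, 2 and 3 and at 52.2, 21.3 and 7.81 in seeds of weeks 6, 8 and 10. M4097-5p went from 416, 684 and 606 TP5M to 40.5, 42.7 and 25.7. In both, no seed came near a pod. Their log2 differences were -5.22 ± 1.06 and -3.79 ± 0.85 (limma, adjusted p = 0.0025 and 0.0043), each lost only with the term for the 6 libraries.

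M4242-3p, linked to miR530, was at 2533, 2955 and 1412 TP5M in the pods and at 123, 239.5 and 59.2 in the seeds. M0196-3p of miR390, whose guide starts trans-acting siRNA production from TAS3, was at 662, 774 and 303 in the pods and at 54.0, 17.8 and 23.4 in the seeds. M1130-3p was at 260, 215 and 35.8 in the pods and at 2.70, 0 and 1.12 in the seeds. No seed library reached a pod library in any of the 3. Their log2 differences were -4.12 ± 1.10, -4.01 ± 1.19 and -4.43 ± 1.34 (limma, adjusted p = 0.0134, 0.0235 and 0.0257). Each was lost with the term and without the week 2 pod or the week 10 seed; M0196-3p and M1130-3p were lost also without the week 1 pod or the week 8 seed, and M1130-3p without the week 6 seed and with a pseudocount of 20. M1371-5p, found in the 6 libraries alone, is among the 16 lower members, with 27.0, 59.4 and 45.1 TP5M in the pods and 0 in every seed.

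Between seed and leaf 15 members differed, 7 higher and 8 lower in seed, against 16.3% of all sequences (6.72% higher and 9.58% lower). Of the 7, 3 are the members that passed the filter only through the seeds. The libraries did not overlap for 14 members, against 16.1%. DESeq2 called 33 members and edgeR 25, with no shares of all sequences given for these methods. By edgeR the median log2 difference was -1.36 for the members and -1.15 for all sequences. With the term for the 6 libraries 8 were called, and leaving out a seed library left 7 to 9.

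The contrast repeats much of the previous one, since both use the same seeds. M4097-5p was lower in seed by 82.6-fold in mean TP5M, the lowest leaf being 559 and the highest seed 42.7 (log2 difference -5.70 ± 0.74, limma, called under all 27 alternatives). M3784-5p was lower by 69.8-fold (log2 difference -5.00 ± 0.92, limma, adjusted p = 0.0014). M2449-5p of miR171, a regulator of GRAS factors of the HAM group, was at 19.8, 13.0 and 12.3 TP5M in seeds of weeks 6, 8 and 10 and from 70.9 to 3179 in leaf with a median of 133. It did not overlap between the organs (log2 difference -3.79 ± 1.03, limma, adjusted p = 0.0154). M2706-3p and M1565-5p were also lower, and their libraries overlapped. These 3 calls were lost with the term for the 6 libraries and without the week 10 or the week 8 seed; that of M2706-3p was lost without the week 6 seed and with a pseudocount of 20 as well, and that of M1565-5p without either leaf at bud differentiation and without a filter on low values.

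The members higher in seed than in leaf included M5046-3p of miR156, with 404, 496 and 121 TP5M in weeks 6, 8 and 10 against 0 to 95.1 in leaf. All seeds were above all leaves. The log2 difference was 3.67 ± 1.12 (limma, adjusted p = 0.0318), and 7 of 27 alternatives lost it, among them edgeR, a pseudocount of 1, the term for the 6 libraries, and leaving out the week 6 or week 8 seed, senescent leaf or old leaf at bud differentiation. Germination stem held 641 TP5M of it and trefoil stem 0.

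The members with the seed of miR399 were low in seed. M3353-3p was at 4.50, 0 and 5.58 TP5M in seeds of weeks 6, 8 and 10, and leaf ran from 3.09 in senescent leaf to 224 in old leaf at trefoil, so the organs overlapped. M1876-3p was at 2.70, 1.19 and 5.58 TP5M in the same seeds and at 6.18 to 214 in the same leaves, which did not overlap. Their log2 differences were -2.64 ± 0.77 and -2.42 ± 0.78 (limma, adjusted p = 0.0253 and 0.0436). The call of M3353-3p was lost under 5 of 27 alternatives (adjusted p up to 0.215), among them leaving out any 1 of the seeds, and that of M1876-3p under 18 of 27 (up to 0.267). Neither was called with the term for the 6 libraries, and M1876-3p was not called by the F-test over the 4 organs (adjusted p = 0.0869).

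**Figure D4:**
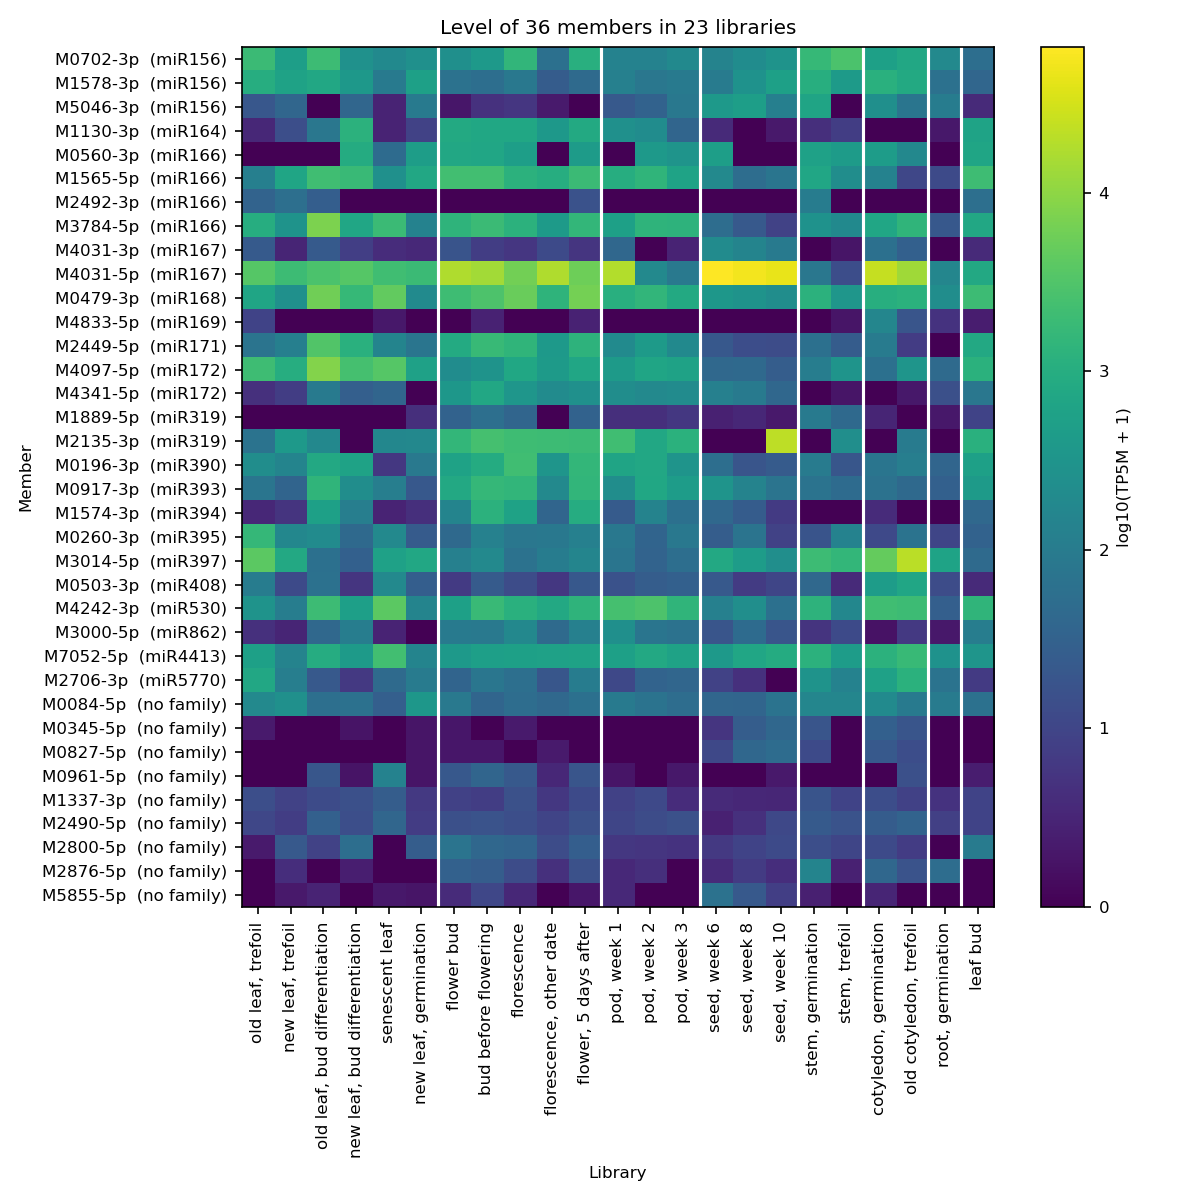
Level of the 36 members named by rule (rows, with linked family) in 23 libraries (columns, in organs divided by white lines); colour is log10(TP5M + 1). M4031-5p is brightest in seed, M0827-5p and M0345-5p appear in seed, cotyledon and germination stem, and several miR166 and miR319 rows change between high and 0 within an organ.

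Organs of 1 or 2 libraries were not tested in pairs. Cotyledon held 91.5% of the summed organ means of M4833-5p, a member linked to miR169, with 158.7 TP5M at germination and 17.9 in old cotyledon, and 79.7% of M0503-3p of miR408, with 461 and 715. M3014-5p of miR397, a family that acts on laccases and is induced by copper shortage, was also highest in cotyledon, with 20671 TP5M in old and 4725 in germination cotyledon, and with 3955 in old leaf at trefoil. The pods of M3014-5p were at 72.6, 32.8 and 54.3 TP5M in weeks 1, 2 and 3. M1889-5p, on miR319 hairpins, was at 93.8 and 43.6 TP5M in germination and trefoil stem, which held 58.7% of its organ means. Leaf bud held 53.4% of M2800-5p (101 TP5M). M2492-3p, listed at 0 in 17 libraries, was at 55.2 TP5M in leaf bud, 104 in germination stem, 57.4, 33.7 and 26.5 in new leaf at trefoil and old leaf at trefoil and bud differentiation, and 15.6 in the flower 5 days after flowering. Root held 29.0% of M2876-5p (51.8 TP5M) and 12.6% of M0084-5p (101 TP5M). No member had its highest organ mean in root, against 1.68% of all 595 sequences fitted. Leaf bud was the highest organ for 23 members (20.5%), flower for 22 (19.6%) and leaf for 20 (17.9%). The shares of all sequences were 15.1%, 16.8% and 14.1%.

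Among the abundant members without a named contrast, M0479-3p, the arm opposite miR168, the regulator of ARGONAUTE1, averaged 1813 TP5M and ran from 202 in germination leaf to 6398 in the flower 5 days after flowering. M7052-5p, linked to miR4413, averaged 715 and ran from 143 to 2297 TP5M. M2135-3p of miR319, which acts on TCP factors, was listed at 21939 TP5M in week 10 seed and at 0 in seeds of weeks 6 and 8, germination stem, germination cotyledon, root and new leaf at bud differentiation, with 68.5 TP5M as its lowest other value. In flower it was at 1564, 2508, 2044, 2019 and 1885 TP5M. M0560-3p was at 0 in 8 libraries, including both old leaves, root and 2 seeds, and at 46.3 TP5M or more in the other 15.

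Opposite arms that differ between copies have a level for each copy, which the member itself has not. An opposite arm was listed for 81 members, and for 43 of them it was another member. At 59 members all loci had a listed opposite arm, and in 39 of these it was a single sequence, so both arms of the duplex were the same at every copy. In 21 members 2 or more different opposite arms were listed. The next sequences are 4 such pairs, chosen after their values were seen, that differ at 1 base between copies and are identical on the member's own arm. Capitals again mark bases 2 to 8.
M4779-5p (chromosome 13 copy): aGAGGTGTatggagtgagaga
M6191-5p (chromosome 17 copy): aGAGATGTatggagtgagaga
M0530-5p (chromosome 2 copy): gGAATGGGctgattgggaagc
M7043-5p (chromosome 18 copy): gGAATGGGctgattgggaagt
M6996-5p (chromosome 18 copy): tAGGACTAtggtttggacgag
M2706-5p (chromosome 7 copy): tAGGACTAtggtttggacaag
M1355-5p (chromosome 3 copy): cTGGGAACaggcagggcacga
M7433-5p (chromosome 19 copy): cTGGGAACaggcagagcacga

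M4779-3p itself is linked to miR1507 by a shared 18 nt run, and this legume family acts on NBS-LRR defence genes. The 2 arms compared here lie opposite it. The chromosome 13 arm, M4779-5p, averaged 10143 TP5M and the chromosome 17 arm, M6191-5p, 3206, with the difference G5A (base of the first-named arm, position from the 5′ end, base of the other). The difference lies in the seed. The chromosome 13 arm was higher in 23 of 23 libraries, 3.16-fold on average, and the pair kept this order from 288 against 75.1 TP5M in root to 27158 against 14529 in old leaf at bud differentiation. M0530-3p, itself listed at 0 in 14 libraries, is a member of miR482, another family that acts on defence genes. Its opposite arms, M0530-5p and M7043-5p, differ by C21T and averaged 6099 TP5M for chromosome 2 and 2688 for chromosome 18, the former higher in 22 of 23 libraries. In the exception, week 10 seed, they were at 13206 and 13340 TP5M. In old leaf at trefoil they were at 3912 and 179.

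The copies of M2706-3p, linked to miR5770, parted by organ. The chromosome 18 arm, M6996-5p, and the chromosome 7 arm, M2706-5p, differ by G19A and averaged 1079 and 259 TP5M. In the 5 flower libraries the chromosome 18 arm was at 193, 949, 280, 143 and 1029 TP5M and the chromosome 7 arm at 0, 2.85, 0, 2.47 and 7.36. In stem they were at 1260.5 and 793 TP5M at trefoil and nearly level, at 981 and 969, at germination, and in root the chromosome 7 arm was the higher, at 156.2 and 210.0. The chromosome 18 arm was thus the higher in 21 of 23 libraries, with root and week 6 seed (46.8 and 52.2 TP5M) as the exceptions. For M0503-3p of miR408 the chromosome 3 arm averaged 211 TP5M and the chromosome 19 arm 14.7 (G15A), the former higher in 20 of 23 libraries. This member has 4 loci, and 2 of its hairpins share another opposite arm, M0503-5p, with a mean of 1.42 TP5M.

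M3967-3p sits opposite both M4097-5p and M3967-5p in miR172 hairpins. M4097-5p belongs to the copies on chromosomes 11, 12 and 13, and M3967-5p, which differs by T2C and T7C (base of M4097-5p first), to the copy on chromosome 10. They averaged 1052 and 90.5 TP5M, and M4097-5p was higher in 23 of 23 libraries. M3967-5p was listed at 0 in all 3 seeds, both stems, both cotyledons and root, where M4097-5p was between 25.7 and 319.4 TP5M. With the rule for reads with mismatches not given in the sources used here, how far arms that differ at 1 base share reads was not tested.

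**Figure D5:**
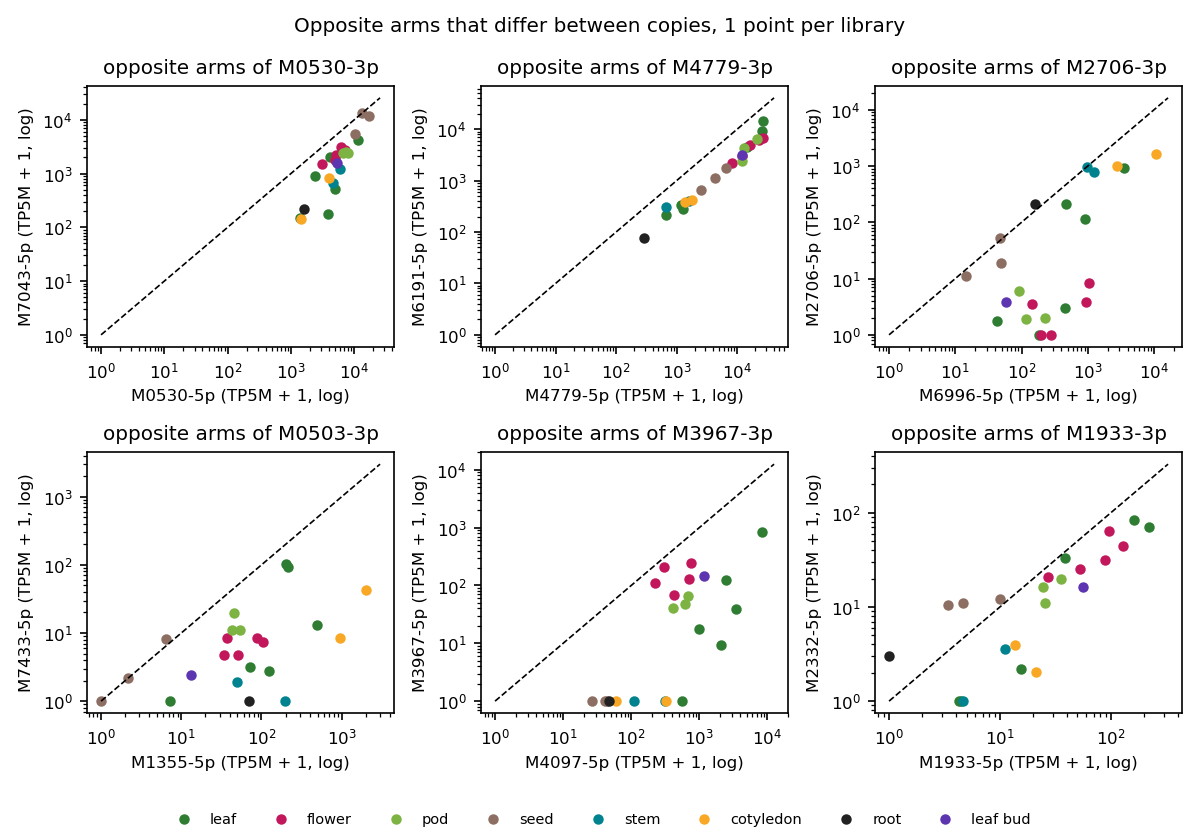
Opposite arms that differ between copies of 6 members (both axes: TP5M + 1 on a log scale; points: 23 libraries coloured by organ; dashed line: equal levels). The M4779 pair keeps its order in 23 of 23 libraries, while the arms of M2706-3p are near equal in germination stem and far apart in flower.

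Pairs of members of equal length that differ at up to 3 bases numbered 6, the miR172 and miR156 arms above among them. In M2489-5p and M2490-5p, which have no family, the single difference was G10A and the mean levels were 17.1 and 14.4 TP5M. M0196-3p and M0715-3p of miR390 differ by C8T, C12T and T17C and averaged 439 and 19.6 TP5M, the former higher in 23 of 23 libraries. Their flower to leaf log2 differences were 2.50 and 1.67 (limma, adjusted p = 0.0439 and 0.0246).

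The members just above the mean of 5 TP5M were M0470-3p at 5.12, M0566-3p at 5.18 and M4833-3p at 5.21 TP5M, and the sequences just below it were M3263-3p at 4.96, M0701-5p at 4.92 and M4081-5p at 4.92 TP5M. The median member averaged 17.5 TP5M and reached 5 TP5M in 16 of 23 libraries. Reads of 45 members were found in all libraries, and 24 members reached 5 TP5M in all.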

How the data were processed

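Small RNA of 15 to 30 nt was gel-purified, ligated, amplified and sequenced on an Illumina HiSeq instrument, per the labels' protocols. The deposited table holds 1 signal per entry and library, in TP5M (tags per 5000000 sequenced tags), per the file headers. The submitters' processing notes list BWA, with genome build, mapping settings and the assignment of reads to entries not given in the sources used here. Columns were matched to samples by the number in the title; the labels hold another number in brackets that would give a different match.

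From 3933 entries, rows of the same sequence were merged by maximum. M0084-5p, whose older label has a hyphen before its number, was counted as unnamed. The worth of 1 read was recovered from the steps of low values: of 28838 values of up to 200 reads, 100.0% were whole within 0.1. The 595 sequences with a mean of 5 TP5M or more were fitted as log2(TP5M + 5) with limma 3.58.1, 1 mean for each organ, eBayes with trend and Benjamini-Hochberg adjustment over all 595 at 0.05. Log2 differences are on this scale, on which low sequences change less than in TP5M; a fold is a ratio of mean TP5M. The values are no raw counts, so edgeR 4.0.16 (quasi-likelihood) and DESeq2 1.42.0 were run as alternatives on the recovered reads, besides TMM scaling, other pseudocounts and filters, summed rows, only the 4 main organs, a term for 6 libraries and leaving out each library of these organs. The fits were tested on simulated data.

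Named are the 10 most abundant members, up to 5 higher and 5 lower called members with the largest difference in each of the 4 contrasts, the 5 with the most loci, the 2 with the largest share of each organ of 1 or 2 libraries, and those next to the threshold. Other members named were chosen after their values were seen. The members and lists were chosen with earlier results of these data known.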

Additional observations from a re-analysis of the deposited data

Results flagged for a closer look

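Among the members named by rule, 72 groups of 4 to 10 libraries were examined for a library far from the others. Of these, 16 stood out by Dixon's test. Its chance rate of about 1 in 20 is for normal replicates. Here the libraries were different stages and some groups were 0 but for 1 library, so that rate gives no expectation for the 16. Old leaf at bud differentiation was the high leaf for M3784-5p (7325 TP5M), M2449-5p (3179), M0917-3p (1392), M1574-3p (544) and M4341-5p (96.1), with the next leaf at 1925, 1155, 230, 114 and 36.0. Old leaf at trefoil was high for M3014-5p (3955 TP5M, next 790), M0260-3p (1628, next 213), M2706-3p (778, next 114) and M4833-5p (8.41, next 1.03). New leaf at bud differentiation was high for M1130-3p (1232 TP5M, next 79.4) and senescent leaf for M0961-5p (135, next 18.6). These 3 leaf libraries from trefoil and bud differentiation are among the 6 that stand apart; the part of that in these values was not tested. New leaf at germination gave the only value above 0 in leaf for M0827-5p (0.87 TP5M) and M1889-5p (3.49). In flower, bud before flowering was high for M4341-5p (773 TP5M, next 353), florescence of the other date was low for M1130-3p (367, next 733), and the flower 5 days after flowering was the only flower above 0 for M2492-3p (15.6).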

How the results depend on the processing

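The number of members was 74 with a mean of 10 TP5M or more and 170 when rows were summed. The count of members called across the 4 organs was 23 with a mean of 20 TP5M or more and 30 to 52 when a library was left out. Flower against leaf gave 10 calls with TMM scaling, 9 by edgeR, 12 with a mean of 20 TP5M or more, 15 with no filter, and 15 to 38 without a library. Pod against flower gave 4 calls by DESeq2, 1 with a pseudocount of 1, 1 with a pseudocount of 20, 1 with summed rows, and 0 to 6 without a library. Seed against pod gave 11 with a mean of 20 TP5M or more, 3 with the term for 6 libraries, and 10 to 25 without a library. Seed against leaf gave 33 by DESeq2, 25 by edgeR, 8 with the term, and 7 to 18 without a library. The cause was not tested, except that the mean of 20 TP5M leaves fewer members to count. Shares of all sequences called are not given for the alternatives, here or above. Their counts are therefore no result about the members as a group. Without the 8 members listed either at 0 or at 10 or more reads, an alternative added after the data were seen, the counts were 40, 25, 0, 20 and 15. Of the single members' values, 668 kept direction and call, 56 kept direction only and 0 reversed. This count includes M0827-5p, M0345-5p and M5855-5p, which passed the filter only through the seeds. Their part of it is no support. No paired analysis was possible because the labels carry no replicate numbers. No tissue was replicated, and members near 5 TP5M rest on few reads per library.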
